A study of Homo sapiens with 7 samples.

Results

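The regions described here are the 1875 places in the genome of OCI-Ly7 cells where a ChIP-seq peak of CREBBP was found and no peak of OCA-B, OCT2, OCT1, MED1 or EP300 touched it. They were chosen by merging all peaks of the 6 lists that shared at least 1 bp on chromosomes 1 to 22 and X, and keeping the merged regions made of CREBBP peaks alone. The merge gave 111561 regions, of which the CREBBP-only regions were 1.68%. Each CREBBP-only region was a single CREBBP peak, and together they made up 4.21% of the 44585 CREBBP peaks (95% exact binomial interval 4.02 to 4.40). Intervals of this kind cover counting error only, here and below.

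OCI-Ly7 is a human line of diffuse large B-cell lymphoma (DLBCL) that grows in suspension, and 1 chromatin library was sequenced for each factor, beside 1 input library that served all of them as control. The antibodies were listed as sc-584 (Santa Cruz) for CREBBP, sc369 (Santa Cruz) for EP300 and sc-233 (Santa Cruz) for OCT2. Those of the other libraries were listed as sc232 (Santa Cruz) for OCT1, A300-793A (Bethyl) for MED1 and ab92315 (Abcam) for OCA-B. Which protein each catalogue number targets was not checked here, and the names CREBBP and EP300 below are those of the library labels. No treatment or genotype is given in the labels, and none of the values below has a replicate check. The CREBBP library was the smallest, with 12357450 tags after filtering against 18459398 to 27885791 in the other 5. Depth, antibody and duplicate rate differed between the libraries, and their part in which peaks were called in 1 list only was not tested.

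CREBBP is a lysine acetyltransferase that acts as a transcriptional coactivator. It does not recognise a DNA sequence itself. DNA-binding factors bring it to enhancers and promoters, where it acetylates histones. EP300 is its close paralog, and both are usually found at the same active enhancers. CREBBP is among the genes most often mutated in lymphomas of germinal centre origin. MED1 is a subunit of the Mediator complex, and OCA-B is a lymphoid coactivator that joins OCT2 or OCT1 on octamer sites.

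Few CREBBP-only regions lay on a promoter. A table of RefSeq promoters for build GRCh38.p14, each running from 250 bases before to 50 bases after a gene's start, covered 22 of the 23 chromosomes and 34961 starts. The summits of 8 of the 1821 CREBBP-only regions on those chromosomes fell inside such a window (0.439%, 0.190 to 0.864), against 1879 of the 41075 CREBBP peaks that overlapped another list (4.57%, 4.37 to 4.78). The 4 of the 8 with the highest CREBBP fold are shown by the 250 bases upstream of the start, to show what sequence lies under member summits, since promoter windows were the sequence used here. They are NOXO1 (chr16:1981470-1981719, minus strand), which encodes an organiser subunit of NADPH oxidase, the uncharacterised gene LOC107985747 (chr1:248739589-248739838, plus strand), NR3C1 (chr5:143403284-143403533, minus strand), which encodes the glucocorticoid receptor, and APC2 (chr19:1449871-1450120, plus strand), a homolog of the tumour suppressor APC. Each runs 5′ to 3′ towards the start, and capitals mark exact matches on either strand to 10 short motifs: the octamer ATGCAAAT, the cyclic AMP response element TGACGTCA, AP-1 TGANTCA, ETS CCGGAAG, PU.1 GAGGAAG, the E-box CAGGTG, RUNX TGTGGT, the interferon response element AANNGAAA, the GC box GGGCGG and the CCAAT box CCAAT.

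NOXO1: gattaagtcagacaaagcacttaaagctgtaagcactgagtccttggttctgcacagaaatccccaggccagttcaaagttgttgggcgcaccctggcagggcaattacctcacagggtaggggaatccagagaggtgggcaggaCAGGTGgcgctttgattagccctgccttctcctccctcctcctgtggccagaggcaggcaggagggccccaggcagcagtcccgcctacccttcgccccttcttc

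LOC107985747: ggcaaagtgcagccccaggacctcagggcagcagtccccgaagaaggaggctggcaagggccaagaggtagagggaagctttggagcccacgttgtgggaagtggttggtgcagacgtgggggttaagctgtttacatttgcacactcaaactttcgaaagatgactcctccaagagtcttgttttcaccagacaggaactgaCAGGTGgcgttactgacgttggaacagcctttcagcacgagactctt

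NR3C1: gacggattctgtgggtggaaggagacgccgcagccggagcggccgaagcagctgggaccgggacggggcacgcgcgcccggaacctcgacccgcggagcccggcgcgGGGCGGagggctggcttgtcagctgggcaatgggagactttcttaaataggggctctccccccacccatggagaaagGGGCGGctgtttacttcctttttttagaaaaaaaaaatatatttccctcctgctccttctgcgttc

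APC2: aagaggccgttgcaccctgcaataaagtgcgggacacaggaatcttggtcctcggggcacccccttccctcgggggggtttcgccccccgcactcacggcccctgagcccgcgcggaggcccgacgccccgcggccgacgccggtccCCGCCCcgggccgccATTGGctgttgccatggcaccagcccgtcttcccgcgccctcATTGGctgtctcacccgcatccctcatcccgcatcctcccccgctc

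In these 4 sequences no match overlapped another. The E-box occurred at 105 bases before the NOXO1 start and at 47 bases before the LOC107985747 start. NR3C1 held the GC box at 143 and 66 bases before its start, and the CREBBP summit lay at 51 bases before it. APC2 held 1 GC box and 2 CCAAT boxes, and its summit lay 250 bases before the start, at the far edge of the window. The GC content of the 8 windows was 48.0% to 73.3%, with a median of 54.3%, against a median of 58.7% over all promoters. Over the full windows of 300 bases, the E-box was in 3 of the 8, the GC box in 3 and the CCAAT box in 2, against 20.6%, 45.0% and 34.6% of all promoters. The octamer and the cyclic AMP response element were in 0 of the 8, and are in 1.77% and 1.85% of all promoters. With 8 windows, 0 allows a share of up to 36.9% (95% exact interval), so no difference from all promoters was detectable. The CREBBP fold over control, as the authors' peak caller gave it, was 8.05 at NOXO1, 7.997 at LOC107985747, 6.04 at NR3C1 and 5.71 at APC2. The other 4 promoters, of FGFBP3-AS1, BLCAP, TRIM3 and ST7-AS1, had folds of 3.40 to 4.76.

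CREBBP-only regions were weak and narrow peaks. These values come from the CREBBP list that the choice of regions used, so they describe the members and test nothing. The median fold over control was 4.71, with the middle 50% between 4.16 and 5.48 and a highest value of 13.7. CREBBP peaks that overlapped another list had a median fold of 6.81 and reached 132. The median pileup, which is the number of fragments stacked on the summit, was 9 in the members and 19 in the others. The median −log10 q was 4.35 against 10.9. The median width was 198 bp against 337 bp, and 25.2% of the members were exactly as wide as the fragment length of 164 bp, the narrowest peak possible in this list, against 5.15% of the other CREBBP peaks.

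When all CREBBP peaks were ranked by −log10 q and cut into deciles, the CREBBP-only share fell from 14.6% in the weakest decile to 10.97%, 7.71%, 4.87%, 2.56% and 1.10% in the next 5 and to 0.202% in decile 7. Decile 8 held 1 member. Deciles 9 and 10 held 0, which allows a share of up to 0.0827% in each. Of the members, 63 (3.36%) had a −log10 q of at least 10, whereas 52.4% of the other CREBBP peaks did. Members came mostly from the weaker peaks of the list, and even in the weakest decile most peaks overlapped another list.

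The edge of the choice ran through peaks that looked alike. The 107 members that lay under 50 bp from a peak of another list had a median fold of 4.31 and a median width of 183 bp. The 150 CREBBP peaks that were not members but overlapped another list by at most 50 bp had a median fold of 4.38 and a median width of 185.5 bp.

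The control level at the summit can be recovered from each peak as (pileup + 1) / fold − 1, and was set against the genome-wide mean that the peak caller used as its lowest allowed value. Members lay where the control was low. Their median control level was 1.51 times the genome-wide level, against 2.63 times for CREBBP peaks that overlapped another list, and the members' median was the lower on 23 of 23 chromosomes. In 11.7% of members (10.3 to 13.2) the control sat at the genome-wide level itself, against 2.69% (2.54 to 2.85). The difference was also present among peaks of like −log10 q. The peak caller derives q from pileup and control, so bands of q are no separate check of it. In 5 bands cut at the quintiles of the members' −log10 q, the median pileup was 8 to 13 fragments in members and 10 to 19 in other CREBBP peaks. The members' median control in these bands was 1.34 to 1.76 times the genome-wide level and that of the other CREBBP peaks was 2.23 to 2.63 times. The fold is computed over this control. In the same bands, the members' median fold was slightly higher than that of other CREBBP peaks in the 4 weaker ones (3.78 against 3.63 in the weakest) and lower in the strongest (6.28 against 6.78). Regions called in only 1 of the other lists had median control levels of 1.28 (OCT1), 1.49 (OCT2), 1.74 (OCA-B), 1.89 (EP300) and 1.91 (MED1), each relative to its own list's genome-wide level. The control at the remaining peaks of those lists was not computed, so whether these medians are low for their lists is not known.

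**Figure D1:**
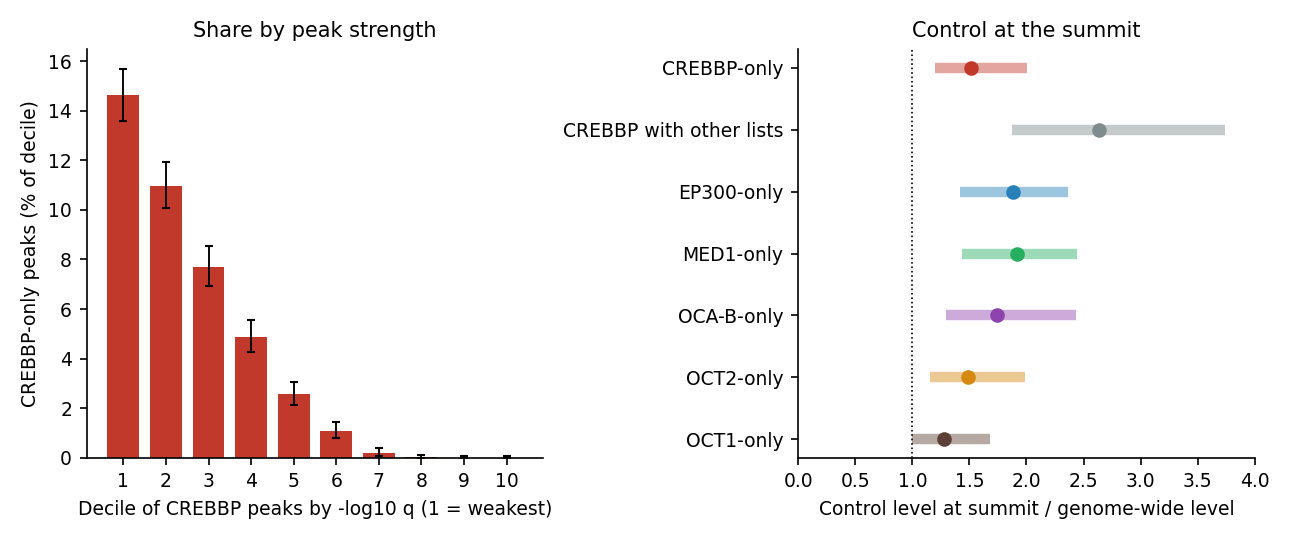
Left, the share of CREBBP peaks that were CREBBP-only (y axis, percent) in deciles of −log10 q (x axis), with 95% exact binomial intervals as bars. The share falls from 14.6% in the weakest decile to 0 in deciles 9 and 10. Right, the control level at the summit divided by the genome-wide level (x axis, ratio) for each set of peaks, with points for medians, thick lines for the middle 50% and a dotted line at 1. CREBBP-only regions have a median of 1.51 and other CREBBP peaks 2.63.

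Most CREBBP-only regions lay close to peaks of other factors without touching them. The gap is bounded below by the choice itself, so the values are descriptive. The median gap to the nearest peak of any other list was 1167 bp, 46.9% of members had one within 1 kb, 77.5% within 5 kb (75.5 to 79.4), 87.3% within 10 kb and 98.9% within 100 kb. Such closeness was not particular to CREBBP-only regions. A peak of any list but their own lay within 5 kb of 93.9% of MED1-only and 74.5% of EP300-only regions. For OCA-B-only, OCT1-only and OCT2-only regions this was 70.4%, 67.4% and 47.3%. Within 5 kb, 62.1% of the CREBBP-only regions had an OCA-B peak, 61.1% OCT2, 59.7% EP300, 48.5% MED1 and 40.5% OCT1. A CREBBP peak that overlapped another list was within 5 kb of 55.4% of them. The 2 shortest lists, OCT1 and MED1, come last in this order, and the intervals of the first 3 overlap. A region with 5 or 6 of the lists was within 5 kb of 39.5% of the CREBBP-only regions (37.2 to 41.7). The same share was 72.9% (71.1 to 74.6) for MED1-only, 53.3% (52.7 to 53.9) for EP300-only, 32.8% (31.5 to 34.2) for OCT1-only, 32.6% (31.2 to 34.1) for OCA-B-only and 23.3% (22.6 to 24.0) for OCT2-only regions. CREBBP-only regions were thus below the first 2 of these sets and above the other 3, each time by more than counting error.

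Only 21 members had no peak of another list within 100 kb. Their folds were 2.09 to 6.28, and ZFP64, GJA1 and HSF2 were among the nearest coding genes. The 2 weakest by fold, nearest to KHDRBS2 and WSB1, had controls of 61.9 and 34.7 times the genome-wide level.

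Position along genes was not used in choosing the regions. Summits at most 1 kb from the start or the end of a coding or lncRNA gene were counted as gene boundary summits. This held for 18.5% of CREBBP-only regions (16.8 to 20.3) and 20.5% of the other CREBBP peaks (20.1 to 20.9). A further 53.5% of members lay inside a gene and 28.0% between genes. For single-list regions of the other factors the boundary share ranged from 8.87% (EP300) and 8.88% (OCT2) over 18.2% (MED1) and 34.7% (OCA-B) to 54.6% (OCT1). The members' share was therefore higher than that of EP300-only regions and could not be told apart from that of MED1-only regions at this number of regions.

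The similar boundary share of CREBBP-only and other CREBBP peaks was made up differently, as the strand of 27195 genes on 22 chromosomes showed. Of the CREBBP-only summits, 5.77% lay within 1 kb of a gene start (4.74 to 6.94), against 16.7% of other CREBBP summits (16.3 to 17.02). Within 150 bp of a start the shares were 0.275% (5 summits) and 3.64%. Low shares at starts were not particular to CREBBP-only regions. Within 1 kb the share was 4.46% for OCT2-only, 5.73% for EP300-only, 12.1% for MED1-only, 25.3% for OCA-B-only and 51.0% for OCT1-only regions. Within 150 bp it was 0.582%, 0.603%, 0.377%, 3.64% and 30.3% in the same order. At 3′ ends the order of CREBBP-only and other CREBBP peaks turned. A summit within 1 kb of a 3′ end and with no start within 1 kb was found in 177 of 1821 CREBBP-only regions (9.72%, 8.40 to 11.2) and in 1344 of 41075 other CREBBP peaks (3.27%, 3.10 to 3.45). Among summits that were not at a start, the shares were 10.3% (8.92 to 11.9) and 3.93% (3.72 to 4.14). Members were more often at 3′ ends on 17 of 22 chromosomes and less often on 5.

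The 3′-end share was also compared with regions called in 1 other list only. Among summits not at a start it was 2.32% for EP300-only, 3.51% for OCT2-only, 3.69% for OCT1-only, 4.67% for MED1-only and 9.26% (8.22 to 10.4) for OCA-B-only regions. The intervals of CREBBP-only and OCA-B-only regions overlap on this measure. Over all summits, those at a start included, the share was 6.91% for OCA-B-only regions (6.13 to 7.77). This was below the 9.72% of CREBBP-only regions, with no overlap of the intervals. A summit at a start never counts towards this share, and 25.3% of OCA-B-only summits were at one, against 5.77% of CREBBP-only summits. Of the 177 CREBBP-only summits at 3′ ends, 102 (57.6%, 49.99 to 65.01) lay past the end of the gene and the rest before it. Their median fold was 4.57, close to the 4.75 of members inside genes away from their ends.

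Along protein-coding genes cut into 10 equal parts, the 850 CREBBP-only summits that lay in exactly 1 gene of known strand formed a curve with 2 raised ends, with 15.5% (13.2 to 18.1) in the part at the start and 15.4% (13.0 to 18.0) in the part at the 3′ end. The other CREBBP peaks had 25.4% in the part at the start and 7.43% (7.06 to 7.80) in the part at the 3′ end. EP300-only regions had 19.4% and 6.69%, and MED1-only regions 29.0% and 8.67%. OCA-B-only, OCT2-only and OCT1-only regions were not placed along genes in this way, so whether they share the 2 raised ends is not known.

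**Figure D2:**
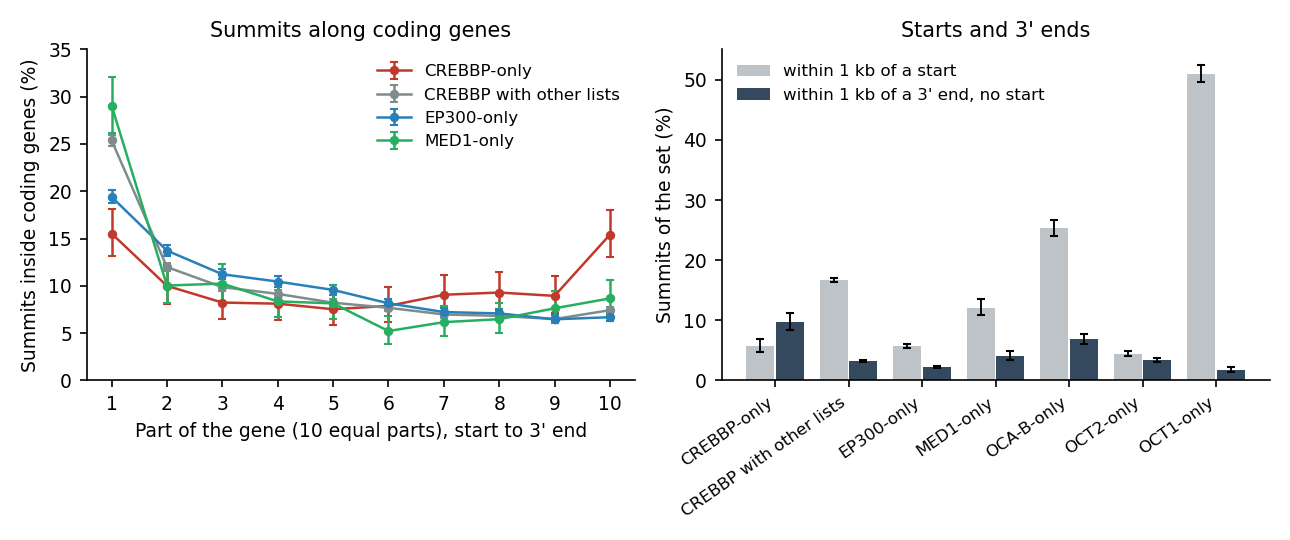
Left, the percent of summits inside protein-coding genes (y axis) in each of 10 equal parts of the gene from start to 3′ end (x axis), for 4 sets of peaks. CREBBP-only regions have 15.5% in the part at the start and 15.4% in the part at the 3′ end. Right, the percent of summits within 1 kb of a start (light bars) and within 1 kb of a 3′ end with no start nearby (dark bars) for each set, both with 95% exact binomial intervals. CREBBP-only regions have 5.77% and 9.72%.

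CREBBP-only regions lay in gene-dense parts of the genome, which bears on these shares. The mean number of protein-coding genes within 100 kb of the summit was 4.87 for members, 3.30 for other CREBBP peaks, 2.75 for EP300-only and 4.85 for OCA-B-only regions. In 4 bands of this number the members' 3′-end share was higher than that of other CREBBP peaks each time. It was 4.10% against 1.44% with 0 or 1 gene nearby, 5.80% against 2.79% with 2 or 3, 11.1% against 4.30% with 4 to 6, and 14.9% (11.9 to 18.3) against 7.33% (6.61 to 8.09) with 7 or more. OCA-B-only regions had 1.64%, 4.87%, 7.94% and 11.03% in the same 4 bands, from fewest to most genes nearby. The members' shares were higher each time, but the intervals of the 2 sets overlapped in all 4 bands. These band shares are over all summits, those at a start included. In the 5 bands of −log10 q the 3′-end share was 8.02% to 12.0% for members and 3.22% to 3.93% for other CREBBP peaks.

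Chromosome 19, the most gene-dense, held 230 members (12.3%), against 4.55% of the other CREBBP peaks, 3.02% of EP300-only and 10.8% of OCA-B-only regions. There the CREBBP-only share of the CREBBP list was 10.6%, against a median of 3.39% over 23 chromosomes and a lowest value of 2.304%. The next shares were 6.48% on chromosome 17, 6.31% on chromosome 16 and 5.98% on chromosome 22. Over the 23 chromosomes this share and the number of protein-coding genes per megabase had a Spearman correlation of 0.62. For EP300-only regions as a share of the EP300 list the value was −0.50, and for OCA-B-only regions 0.68. These correlations are descriptions over chromosomes of 1 library each, and base composition, which also goes with gene density, was not analysed here.

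**Figure D3:**
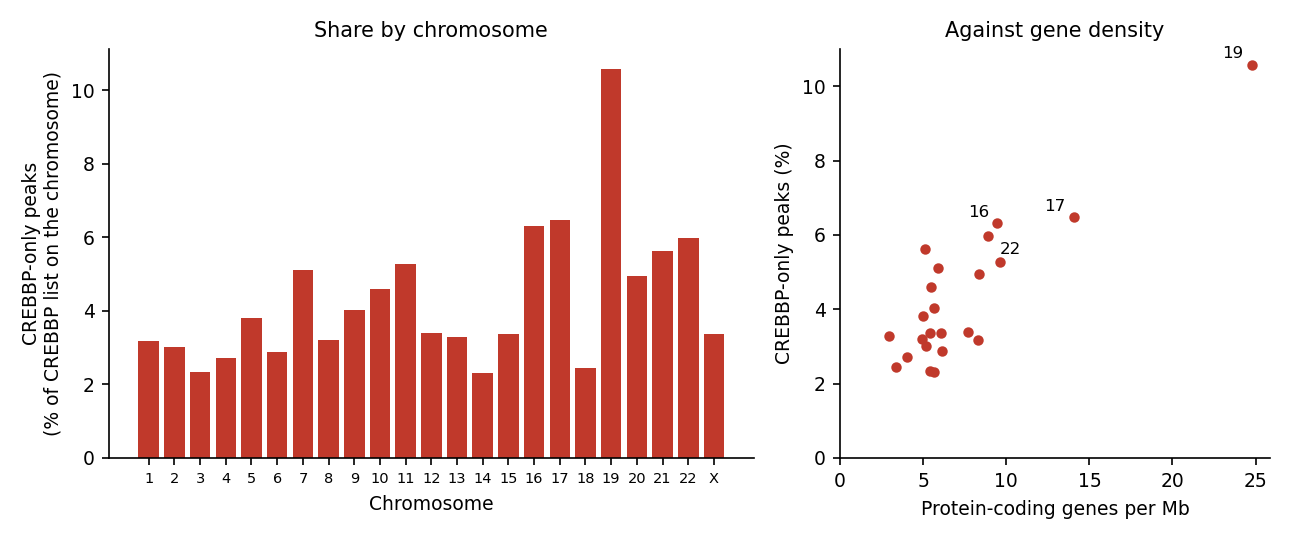
Left, CREBBP-only peaks as a percent of all CREBBP peaks (y axis) on each chromosome (x axis). Right, the same percent (y axis) against protein-coding genes per megabase (x axis), 1 point per chromosome, with chromosomes 16, 17, 19 and 22 named. Chromosome 19 stands highest at 10.6%.

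Some of the members lay in groups. When members within 10 kb of each other were linked, 40.8% (38.6 to 43.1) were in a group of at least 2 and 10.7% (9.31 to 12.2) in one of 31 groups of at least 5, which held 200 members. The share in groups of at least 5 was 8.43% for MED1-only, 6.14% for OCT1-only, 1.35% for OCA-B-only and 1.01% for OCT2-only regions. It was 19.1% for EP300-only regions, which are 24945 in number. The spans of the 31 groups held 237 CREBBP, 39 OCA-B, 34 OCT2, 27 EP300, 23 MED1 and 14 OCT1 peaks. These spans join regions chosen for having no peak of the other lists. The excess of CREBBP peaks is therefore partly fixed by the choice, and the counts are descriptive. Groups of the other single-list regions were not counted in this way. In 11 of the 31 spans none of the other 5 lists had a peak, and in 18 EP300 had none.

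The largest group lay inside TCF3, which encodes E-protein transcription factors that drive B-lymphocyte differentiation. TCF3 runs on the minus strand of chromosome 19 (chr19:1609292-1652615). It carried 27 CREBBP peaks, of which 19 were CREBBP-only, with folds of 3.70 to 9.64. The other lists had 8 peaks (OCA-B), 7 (OCT2), 7 (OCT1), 6 (EP300) and 5 (MED1) in the same gene. In the first 6 kb after the start all 6 factors had peaks, and CREBBP reached a fold of 44.7 there, 4.02 kb from the start. From 8.82 to 16.8 kb came 13 CREBBP-only regions in a row with folds of 5.07 to 8.51 and no peak of another list between them. About 19 kb from the start lay a peak of OCT1 with a fold of 84.3, of OCT2 with 32.4 and of OCA-B with 12.9, beside 2 CREBBP peaks that touched the OCT1 peaks, with folds of 7.31 and 4.31. A further 5 CREBBP-only regions stood between 26.7 and 29.9 kb, with 1 weak OCT1 peak (fold 3.74) among them. The strongest member of the gene, with a fold of 9.64, lay 84 bp from its 3′ end, inside the gene. The pileup in the 18 members of the group was 6 to 16 fragments, so each of them rests on few tags. EP300 and MED1 had 0 peaks in the span of 21.3 kb that these 18 members covered (chr19:1622580-1643909).

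**Figure D4:**
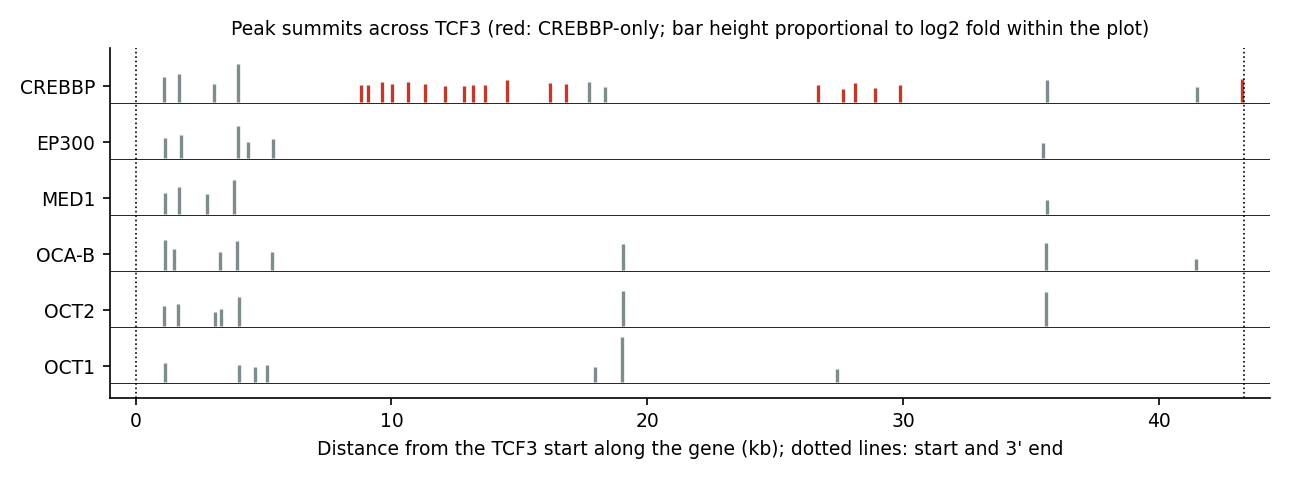
Summits of all peaks in TCF3 by distance from the gene's start (x axis, kb), 1 row per factor. Bar height is proportional to log2 fold, red marks CREBBP-only regions and grey all other peaks. The red bars fill 8.82 to 16.8 kb and 26.7 to 29.9 kb, where EP300 and MED1 have no peak, and 1 stands at the 3′ end.

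The second group held 12 members over 28.6 kb at TERT, the catalytic subunit of telomerase, with folds of 3.999 to 6.90. In its span OCA-B had 2 peaks and EP300 1. CBX6, a Polycomb chromobox gene, had 8 members within 5.48 kb with folds of 4.56 to 8.55, and the span held 1 OCA-B and 1 OCT2 peak. A group of 8 between genes nearest to WDR4, which encodes a subunit of a tRNA methyltransferase, and one of 7 over RBM14, a coactivator gene, held no peak of another list. Groups of 8 lay over ANP32A and ARF1, a small GTPase gene of vesicle transport, where all 5 other factors also had peaks. PFKFB3, a regulator of glycolysis, and PCGF3, a Polycomb gene, had 7 each. CD22, an inhibitory coreceptor of B cells, had 7 in 8.74 kb with folds of 4.03 to 6.42, where OCA-B and EP300 had 1 peak each. Chromosome 19 held 5 of the 31 groups.

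**Figure D5:**
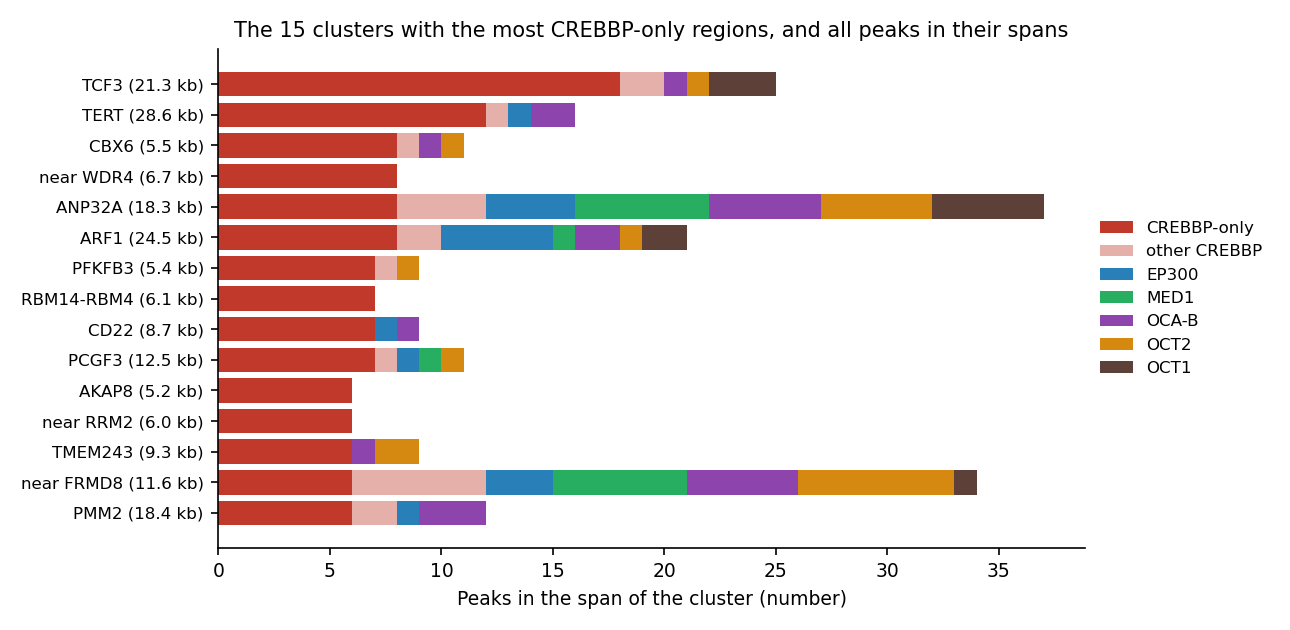
The 15 groups with the most CREBBP-only regions (y axis, with the gene at or near the group and the length of its span) and the number of peaks of each list in the span (x axis). The TCF3 group has 18 CREBBP-only regions in 21.3 kb and no EP300 or MED1 peak, whereas the ANP32A span has peaks of all 6 factors.

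Of the 15 members of highest fold, 5 lay on chromosome 19. The highest fold, 13.7 from a pileup of 23 fragments, was inside GALNS (chr16:88814402-88814657), a lysosomal sulfatase gene, 814 bp from its 3′ end, with the control at the genome-wide level. DLEU7 followed with 12.3 inside the gene and 59814 bp from its nearer end. SUGP2, a splicing-factor-like gene, had a member with a fold of 10.4 at 1031 bp past its 3′ end, and the tyrosine phosphatase gene PTPRH was the nearest coding gene of one with 10.3, at 8476 bp and 552 bp from the 3′ end of the uncharacterised LOC124904771. DOCK6 had one with 10.1 inside the gene. Folds of 9.88 and 9.86 were nearest to CMPK2, a mitochondrial nucleotide kinase gene, and to AMZ2, at 7324 and 7469 bp. LIG4, the DNA ligase of non-homologous end joining, had a member with 9.56 at 356 bp from its start, 95 bp from a peak of another list. RIPOR1, CYBC1 and AGPS were the nearest coding genes of members with 9.15, 8.88 and 8.84. BORCS8-MEF2B had 8.95 at 3077 bp from its 3′ end. TRIM73 and TRIM74 had 9.11 and 9.05, but these genes are near-identical copies of each other, so the reads behind those peaks may not be placed with certainty.

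After GALNS, the region near PTPRH and TCF3, the next members by fold at 3′ ends of coding genes were at PIF1 (8.66), a DNA helicase gene, PTGER1 (8.57), a prostaglandin receptor gene, NDUFA11 (8.29), a subunit of respiratory complex I, and SLC1A5 (8.05), a glutamine transporter gene. Their summits were 497, 594, 172 and 42 bp from the annotated end. At another gene end, a member near MIF lay 136 bp from the end of a gene, with a fold of 8.57. A member 63 bp from the 3′ end of MIR17HG, the host transcript of an oncogenic microRNA cluster, had a fold of 4.23 and a control of 5.91 times the genome-wide level, and was named after its values were seen.

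A few members had very high control. Those nearest to KHDRBS2, TPTE, ZNF33B and WSB1 had controls of 61.9, 47.8, 42.1 and 34.7 times the genome-wide level with folds of only 1.90 to 2.29, and each lay over 190 kb from the nearest protein-coding gene. The next highest control was 13.2 times, in SLC38A10.

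Members were assigned to protein-coding genes by the closest gene end, up to 100 kb away. This placed 1760 members (93.9%) at 1212 genes, which is 6.07% of the 19974 protein-coding genes. Of these, 277 genes had 2 or more members. Genes with members mostly had other CREBBP peaks as well, in 80.3% of cases (77.9 to 82.5) against 51.7% of all protein-coding genes. The genes with the most members were TCF3 (19), RRM2, TERT, NUP210 and ANP32A (9 each) and CBX6, WDR4, PFKFB3 and FRMD8 (8 each). ARF1, PCGF3, GRAPL, CD22, KPNB1 and RBM14 followed with 7 each, of which GRAPL is a near copy of GRAP and may share reads with it. A summit within 1 kb of an end of the gene was found for 252 genes, 1.26% of all.

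The lists for B cell identity, germinal centre B cells and B cell receptor signalling together had members at 19 of 69 genes (27.5%, 17.5 to 39.6), against 6.07% of all genes. All 69 also had CREBBP peaks that overlapped another list, against 51.7% of all genes, and the part of this in the count was not tested. Shares above 6.07% were not particular to these lists. The plasma cell list had members at 5 of 20 genes (25%, 8.66 to 49.1). The cell cycle and ribosomal protein lists had 4 of 20 each (20%, 5.73 to 43.7), an interval that includes 6.07%. The class II, myeloid and neuron lists had 0. In the B cell identity list 7 of 25 genes had a member (28.0%, 12.1 to 49.4), and those beyond TCF3 and CD22 were PAX5, BLK, FCRLA, TNFRSF13C and IRF8. PAX5, which sets B-cell identity, had 1 inside the gene with a fold of 3.70, beside 32 CREBBP peaks that overlapped other lists. BLK, a Src-family kinase gene, had 2 with folds of 4.26 and 4.69. TNFRSF13C, the BAFF receptor gene, had 1 with 6.47 at 3374 bp. FCRLA and IRF8 had 1 each, with 4.08 and 3.58.

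Of the germinal centre list, 6 of 24 genes had members. BACH2, a repressor that delays plasma cell differentiation, had 6 inside the gene with folds of 3.59 to 5.93 beside 46 other CREBBP peaks. EZH2, the Polycomb methyltransferase gene, had 3 with 4.44 to 6.91, and BCL7A, which encodes a subunit of SWI/SNF remodelling complexes, had 2 with 4.75 and 5.82. KLHL6, a ubiquitin ligase adaptor gene, POU2F2 and POU2AF1 had 1 each, with 4.54, 4.11 and 4.31. The last pair encode OCT2 and OCA-B. The POU2AF1 member lay 828 bp from the gene and only 21 bp from a peak of another list.

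Of the B cell receptor list, 6 of 20 genes had 1 member each. By fold these were CD81 (6.83), the exchange factor gene VAV1 (6.08), SYK (5.38), the lipid kinase gene PIK3CD (5.35), PLCG2 (4.02) and the calcium-responsive factor gene NFATC2 (3.94). The PIK3CD member lay 44601 bp from that gene. The kinase SYK and the phospholipase PLCG2 carried theirs inside the gene, next to 32 and 48 other CREBBP peaks. The plasma cell list had 5 of 20, namely the BCMA receptor gene TNFRSF17 (5.00), CD38 (5.56), CD27 (4.41), IRF4 (2 members, 3.83 and 4.01) and TXNDC5 (2 members, 3.95 and 4.11). The CD40 and NF-kB list had 3 of 18. CD40 had 3 members at 167, 494 and 1703 bp from the gene, with folds of 3.40, 5.11 and 6.04, and RELB and CD83 had 1 each with 5.00 and 4.47.

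CREBBP takes its name from binding CREB. In the list of cyclic AMP and immediate early genes 3 of 24 had a member (12.5%, 2.66 to 32.4), an interval that includes the 6.07% of all genes. They were the AP-1 gene JUND (6.93), CREB1 itself (4.31) and the clock gene PER1 (3.78). The class II antigen presentation list had 0 of 13 (up to 24.7%), although 8 of the 13 had other CREBBP peaks. Of the cell cycle list 4 of 20 had members, led by RRM2, a ribonucleotide reductase subunit gene, with 9 of 3.93 to 7.34, 6 of them in a group between 2633 and 8252 bp past the gene where no other list had a peak. AURKA, CDK1 and MCM5 had 1 each. The ribosomal protein list had 4 of 20, with folds of 3.78 to 4.31, and the member given to RPL11 lay 25408 bp from that gene.

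Among lists of other lineages, T cell genes had 1 of 16 (LEF1, 3.40), erythroid genes 1 of 10 (TFRC, 7.26, at 26713 bp from the gene), liver genes 1 of 10 (HNF4A, 5.18), and myeloid and neuron genes 0 of 12 and 0 of 10. Of these 58 genes together, 3 had a member (5.17%, 1.08 to 14.4). CREBBP peaks that overlapped another list were at 9 of the 16 T cell, 5 of the 12 myeloid and 5 of the 10 erythroid genes. They were also at 4 of the 10 liver and 3 of the 10 neuron genes. These are 26 of the 58 together, against 51.7% of all protein-coding genes and 25 of the 25 B cell identity genes. The T cell count was not below the share of all genes. HNF4A, a liver factor gene, had its member inside the gene and no other CREBBP peak. With lists of 10 to 25 genes, most intervals reach from under 10% to over 30%, and no ranking of the lists can be read from them.

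At microRNA genes, 9 members had a summit within 1 kb of the middle of a RefSeq hairpin. The highest folds were at MIR6768 (6.28), MIR7106 (5.61) and MIR6747 (5.29). MIR33A, which lies in an intron of SREBF2 and acts in cholesterol handling, had 1 with 4.94 at 843 bp, and MIR148A 1 with 4.53 at 805 bp.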

How the data were processed

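Chromatin from OCI-Ly7 cells was immunoprecipitated for 6 factors, 1 library each, beside 1 input. Per the submitters' processing notes, the build was hg38 and the tools named were MACS2 2.1.1.20160309, SAMtools 1.3.1, Bowtie2 2.3.2.2 and CASAVA 1.8.2. Per the file headers, peaks were called separately for each library against 1 input file of 37517450 tags after filtering, at a q threshold of 0.05, and ChIP libraries held 12357450 to 27885791 tags after filtering. The headers give duplicate rates of 0 for CREBBP and MED1 and 0.08 to 0.20 for the others; whether duplicates had been removed from those 2 libraries before calling is not given in the sources used here. The deposited lists give each peak's pileup signal, −log10 p-value and −log10 q-value and its fold enrichment ratio, as the authors deposited them.

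Overlapping peaks were merged with Python 3.11.15, pandas 2.3.3, numpy 2.4.6 and scipy 1.17.1, and the interval code was tested on simulated data. The control level was recovered from pileup and fold. Gene ends came from RefSeq (GRCh38.p14), without exons; strands and starts came from its promoter sequences, which covered 15812 of 19974 protein-coding genes and 22 chromosomes. Peaks on other contigs were left out of all comparisons. Shares carry 95% Clopper-Pearson intervals. With 1 library per factor there is no test between conditions and no p-value.

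The regions, gene lists and comparisons were chosen with earlier results of these data known. Named were the 15 members of highest fold, the 10 of highest fold at gene boundaries, the 10 genes with most members, the listed genes with a member, and the promoters holding a member summit. The 3′-end comparison and its 10 strongest members, the clusters, the gene density and the members of highest control were added after the data were seen. Alternatives changed the merge distance, the q minimum, the lists used, the windows and the chromosomes.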

Additional observations from a re-analysis of the deposited data

Results flagged for a closer look

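Peaks on unplaced, random and alternate contigs were outside every comparison. The same merge there gave 64 CREBBP-only regions among 3807 merged regions, with a median fold of 5.14 and a range of 3.45 to 9.71. They carry no gene annotation here and were not analysed further.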

How the results depend on the processing

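With 1 library per factor, no value has a replicate check, and no replicate could be left out. No paired analysis was possible because no factor has a second library. Of 64 values under alternatives, 36 stayed within 1.5 times a count or within the interval of a share or difference, 27 moved and 1 reversed. The 3′-end comparison, and leaving out chromosome 19 or the groups of at least 5 members or averaging over bands of gene density, were chosen after the data were seen. None of these last 3 moved a result, and the 3′-end difference was 5.92, 6.66 and 5.39 points under them, against 6.45. The part of depth in membership was not tested.

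The number of CREBBP-only regions, 1875, became 789 with peaks up to 1000 bp apart joined, 686 with CREBBP peaks of −log10 q of at least 5, 1080 with all lists at that minimum and 4309 without the EP300 list. Without the list of OCA-B, OCT2, OCT1 or MED1 it was 2072, 2216, 1892 and 2107. The count of genes, 1212, became 493 with that minimum for members. The gene boundary share, 18.5%, was 15.7% with peaks up to 1000 bp apart joined, 20.8% with all lists at the minimum, 4.21% and 44.1% with windows of 250 and 2500 bp, and 13.2% with protein-coding genes only. The share with a neighbour within 5 kb, 77.5%, was 70.6% and 54.6% with peaks up to 250 and 1000 bp apart joined and 71.8% with all lists at the minimum, and it was 46.9% within 1 kb and 87.3% within 10 kb.

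The difference in median fold, −2.10, was −2.00 and −1.91 with the 2 joining distances, −2.49 and −2.56 with the minimum for CREBBP and for all lists, and −2.06 on chromosomes 1 to 22. As a mean over bands of −log10 q it reversed to 0.136. The members' median fold was 3.78 against 3.63 in the weakest band and 6.28 against 6.78 in the strongest. What made the sign change was not tested. The difference in median control, −0.842 fragments, was −0.955 and −0.988 with the joining distances, −0.953 with the CREBBP minimum and −0.674 over the bands. The 3′-end difference was 4.93 points with the CREBBP minimum, and 1.59 and 14.6 points with windows of 250 and 2500 bp. Its direction was the same under all alternatives run.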
